A study of Mus musculus with 20 samples.

Results

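Described here are 10 of the 54532 genes counted in the mouse aorta, with circadian clock genes left aside. This does not set the 10 apart from the clock, whose part in them was not tested. The 10 are Tcap, Ppp1r1b, Nnat, Foxs1, Rasl10b, Dgkg, Tent5b, Fndc5, Prss35 and Dnajc9. They were chosen by their measured values, either for a large difference between BAPN and water in at least 1 region of the aorta or for a strong difference of that effect between the regions. Their BAPN values are therefore given as a description, without p-values, and how many passed the test for BAPN is no evidence beyond the choice itself. Tests are kept for the difference between the regions averaged over both treatments, which the choice did not use. C57BL/6J mice received water or BAPN (beta-aminopropionitrile) for 1 week, and RNA of the ascending and of the descending thoracic aorta was sequenced. Each of the 4 combinations (ascending water, ascending BAPN, descending water, descending BAPN) had 5 libraries numbered 1 to 5, 20 in all; the age and sex of the mice are not given in the sources used here. The labels do not say that the libraries of a group are from separate animals, and the p-values then cover only the spread between these samples. The tissue was sequenced in bulk, so fewer cells of a type and less RNA per cell cannot be told apart.

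Lysyl oxidases form the cross-links of elastin and collagen fibres. BAPN inhibits them, and young mice given it can develop aneurysm and dissection of the thoracic aorta. The 10 genes do not form a pathway. Tcap encodes telethonin, which caps titin at the Z-disc of striated muscle. Ppp1r1b encodes a phosphoprotein that inhibits protein phosphatase 1 after phosphorylation by protein kinase A and is best known from striatal neurons. Nnat is an imprinted gene for a small membrane protein. Foxs1 is a forkhead transcription factor known from pericytes and neural crest derivatives, and Rasl10b is a Ras-like small GTPase. Dgkg encodes a diacylglycerol kinase, which turns the lipid messenger diacylglycerol into phosphatidic acid. Tent5b is a non-canonical poly(A) polymerase, Fndc5 the membrane precursor of the secreted peptide irisin, Prss35 a secreted protein of the serine protease fold, and Dnajc9 a J-domain histone chaperone.

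Levels are CPM, the counts of a gene brought to a common library total after scaling by edgeR's trimmed mean of M values, and differences are log2 values with their standard error (SE). A gene is called where edgeR's quasi-likelihood test gives a Benjamini-Hochberg adjusted p under 0.05 over the 15543 genes tested. The libraries held between 15.7 M and 23.3 M counts each. Of 12 markers of region, 6 were called higher and 5 lower in the descending aorta, and Isl1 was not called (edgeR adjusted p = 0.103). Among those called, Hoxb6 was at 27.6 CPM in descending water and 0.0222 in ascending water. Gata4 was at 51.2 in ascending and 0.131 in descending water, so that both separated the regions as labelled. The libraries also fell into a set of 10 with higher and a set of 10 with lower levels of 33 pseudogenes. All 5 ascending BAPN libraries lay in the higher set with ascending water 4 and 5 and descending water 1, 2 and 5, and all 5 descending BAPN libraries lay in the lower set with the remaining water libraries. Values within 1 set are given beside some of the results they move, and the part of these sets in the results was not tested.

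The promoters of Dgkg, Tent5b and Dnajc9 are shown because these genes stand for 3 patterns below: higher with BAPN in both regions, higher with the larger value in the descending aorta, and lower in the descending aorta. Each holds a textbook motif, which does not set them apart, since the other windows held such motifs too. RefSeq gave windows for 6 of the 10 genes (Nnat, Dgkg, Tent5b, Fndc5, Prss35 and Dnajc9) on GRCm38.p6, each from 250 bases before to 50 bases after the start. In capitals are the E-box CACGTG in Dgkg (chr16:22657182-22657481, minus strand), CCAAT in Tent5b (chr4:133479883-133480182, plus strand) and GGCGGGAA in Dnajc9 (chr14:20388861-20389160, minus strand).
Dgkg: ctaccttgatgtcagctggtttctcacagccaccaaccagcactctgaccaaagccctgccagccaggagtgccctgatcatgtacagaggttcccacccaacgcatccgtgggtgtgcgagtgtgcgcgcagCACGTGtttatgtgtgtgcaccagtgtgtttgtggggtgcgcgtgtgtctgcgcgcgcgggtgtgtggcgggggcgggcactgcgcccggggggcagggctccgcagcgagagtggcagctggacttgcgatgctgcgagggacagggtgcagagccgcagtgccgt
Tent5b: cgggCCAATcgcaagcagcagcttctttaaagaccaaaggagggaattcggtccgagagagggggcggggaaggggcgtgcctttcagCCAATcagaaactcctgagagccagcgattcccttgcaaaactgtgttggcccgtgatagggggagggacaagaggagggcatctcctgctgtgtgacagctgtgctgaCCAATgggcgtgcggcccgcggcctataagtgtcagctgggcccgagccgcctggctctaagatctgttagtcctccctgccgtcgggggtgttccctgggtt
Dnajc9: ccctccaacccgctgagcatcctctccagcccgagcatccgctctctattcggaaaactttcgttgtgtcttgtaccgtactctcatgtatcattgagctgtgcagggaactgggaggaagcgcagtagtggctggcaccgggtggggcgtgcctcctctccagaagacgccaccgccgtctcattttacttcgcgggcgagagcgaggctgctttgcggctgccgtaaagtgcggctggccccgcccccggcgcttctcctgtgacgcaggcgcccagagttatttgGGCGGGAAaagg
Both strands were searched in 32851 RefSeq windows of that length. CACGTG occurred in 7.15% of them, CCAAT in 37.4% and GGCGGGAA in 2.19%. Of the 6 windows, only that of Dgkg held CACGTG, at position -117 from the start, and only that of Dnajc9 held GGCGGGAA, at position 38. Tent5b held CCAAT at positions -246, -162 and -53, and Prss35 held it at -171. Further motifs were searched as well. The GC box GGGCGG, in 35.7% of all windows, was in each of the 6 but that of Nnat. Nnat held AGAACA, found in 19% of all windows, at -106. TTATGTAA, AGGTCA, TGACGTCA and the CArG box were in none of the 6. A match describes the letters in the window and no more.

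**Figure D1:**
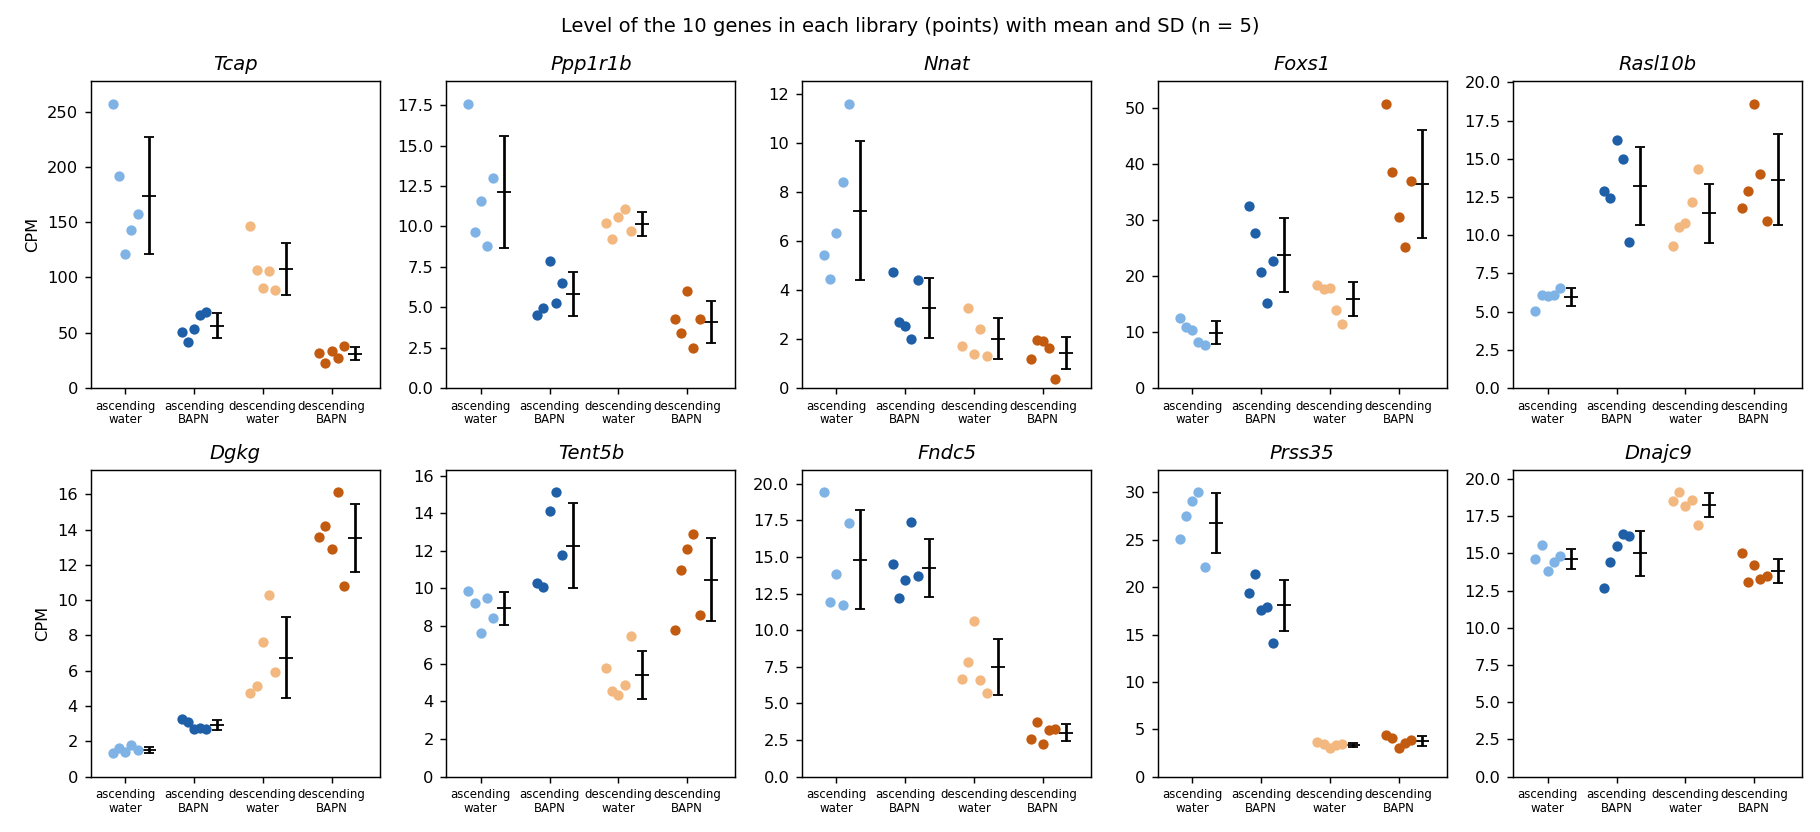
Levels of the 10 genes in every library (y axis, CPM, linear and starting at 0; x axis, the 4 groups). Points are single libraries, from 1 to 5, and black bars the mean and SD of 5; Tcap had the highest levels in 3 of the 4 groups, and Dgkg, Fndc5 and Prss35 had no overlap between ascending and descending libraries, as did 10.7% of all genes tested.

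Of the 10 genes, 7 were called for BAPN in the ascending aorta, 3 higher and 4 lower, against 6.34% of all genes tested. For the descending aorta 7 were called, 3 higher and 4 lower, against 10.7% of all genes. Since the genes were selected on these contrasts, the counts are printed as a description. Tcap, Ppp1r1b, Foxs1 and Dgkg were called in both regions, each in the same direction. None of the 10 was called where the BAPN effects of both regions were set against each other, and there edgeR called 0 of 15543 genes (0% of all; 1070 had an unadjusted p under 0.05, DESeq2 called 14 and limma-voom 0).

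Tcap (ENSMUSG00000007877, chromosome 11, 98383811 to 98384953, plus strand) had the highest mean of the 10 in every group but descending BAPN, where Foxs1 had 36.4 CPM and Tcap 30.7 CPM. In ascending water it was at 257, 192, 121, 143 and 157 CPM in libraries 1 to 5, and in ascending BAPN at 51.0, 41.4, 53.5, 66.3 and 68.9 CPM. Every BAPN library lay below every water library. The mean went from 174 CPM (SD 53.1, n = 5) to 56.2 CPM (SD 11.4, n = 5), a log2 difference of -1.63 (SE 0.173), or 3.09-fold lower. Descending water libraries were at 146, 107, 90.6, 106 and 88.2 CPM and descending BAPN libraries at 32.0, 22.9, 33.0, 27.4 and 38.3 CPM. Again the groups did not overlap, and the log2 difference was -1.80 (SE 0.181), or 3.49-fold lower. Among 10625 protein-coding genes averaging 5 CPM or more, Tcap had the third lowest log2 difference in the ascending and the second lowest in the descending aorta.

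Ppp1r1b (ENSMUSG00000061718, chromosome 11, 98348404 to 98357796, plus strand) lies 26015 bases before Tcap on the same strand. In ascending water it was at 17.6, 9.66, 11.6, 8.82 and 13.0 CPM and in ascending BAPN at 4.53, 4.95, 7.89, 5.24 and 6.47 CPM. The lowest water library was 8.82 CPM and the highest BAPN library 7.89 CPM, so the groups came close without overlapping. The log2 difference was -1.06 (SE 0.184). Descending values were 10.2, 9.24, 10.6, 11.1 and 9.69 CPM with water and 4.26, 3.40, 6.03, 2.47 and 4.28 CPM with BAPN, a log2 difference of -1.31 (SE 0.195). Of its 2928 exonic bases, 460 (15.7%) overlap the antisense gene 1700003D09Rik, and whether counting used strand is not stated, so reads there cannot be told apart.

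Stard3, a sterol-binding protein of late endosomes, is the gene between them. It begins 572 bases after Ppp1r1b and ends 2699 bases before Tcap, on the same strand, and was not among the chosen genes, so it was tested. It fell in both regions. In the ascending aorta it went from 31.2, 31.2, 26.5, 29.4 and 29.6 CPM to 20.1, 18.9, 18.2, 18.9 and 23.3 CPM, without overlap, a log2 difference of -0.57 (SE 0.0703; edgeR adjusted p = 8.82e-06). The descending libraries went from 25.2, 24.5, 23.1, 22.3 and 22.9 CPM to 16.8, 18, 20, 20.1 and 18 CPM, also without overlap, with -0.35 (edgeR adjusted p = 0.00225). Within the set of lower pseudogene levels the descending difference was -0.30 (edgeR adjusted p = 0.151).

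The genes outside this run of 3 did not pass the test. Pgap3, an enzyme of lipid-anchor remodelling 3724 bases past Tcap on the other strand, had log2 differences of 0.01 in the ascending and -0.19 in the descending aorta (edgeR adjusted p = 0.958 and 0.273). Erbb2, a receptor tyrosine kinase 27517 bases past Tcap, had -0.04 and 0.04 (0.835 and 0.779). Cdk12, a kinase of transcription elongation 69900 bases before Ppp1r1b, had 0.08 and 0.05. Pnmt, which makes adrenaline and also lies here, was too low to test, with means of 0.56 CPM in ascending and 0.253 CPM in descending water.

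**Figure D2:**
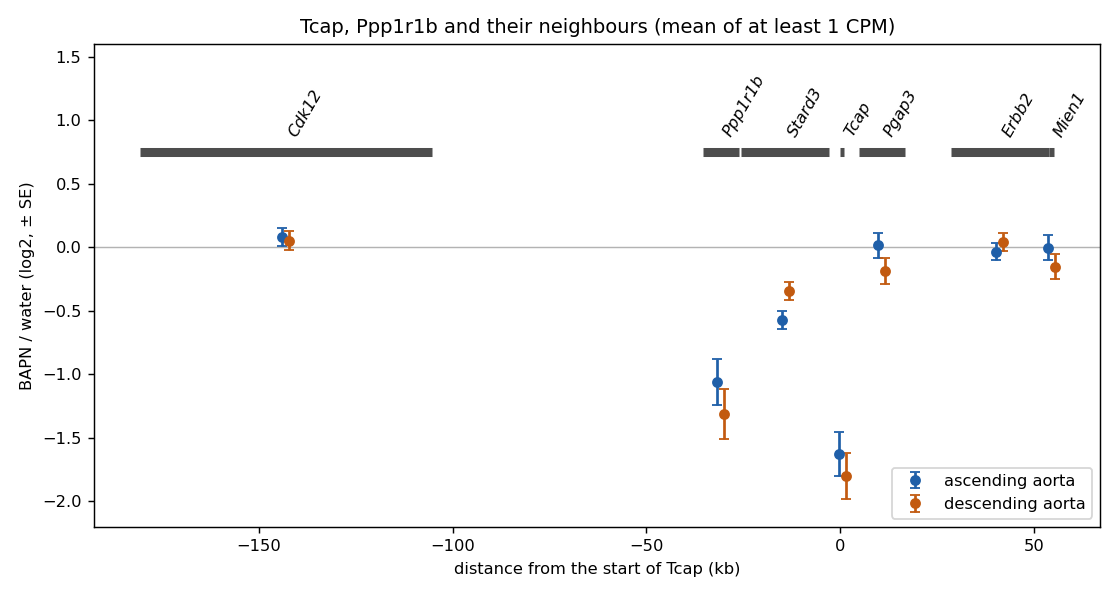
BAPN minus water log2 difference (y axis, with SE bars) of Tcap, Ppp1r1b and the genes around them with a mean of at least 1 CPM, by distance from the Tcap start in kb (x axis), for the ascending and the descending aorta; dark bars above are the gene spans. Ppp1r1b, Stard3 and Tcap lie below 0 in both regions and their flanking genes near 0.

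Foxs1 (ENSMUSG00000074676, chromosome 2, 152931898 to 152933208, minus strand) was higher with BAPN in both regions. In the ascending aorta it was at 12.5, 10.8, 10.4, 8.19 and 7.61 CPM with water and 32.5, 27.7, 20.8, 15.2 and 22.6 CPM with BAPN. Descending levels were 18.4, 17.6, 17.8, 13.9 and 11.5 CPM with water and 50.8, 38.6, 30.6, 25.2 and 37.0 CPM with BAPN. The treatments did not overlap in either region. The log2 differences of 1.26 (SE 0.191) and 1.20 (SE 0.181) differed by less than their SEs. In ascending water the mean was 7.9 CPM in the higher and 11.2 CPM in the lower pseudogene set. Over the alternatives other than leaving out a library, the ascending value ran from 1.23 to 1.59. Of the 3 tested neighbours of Foxs1, 2 fell. The spindle gene Tpx2, 36577 bases away, fell by 0.58 and 0.69 on the log2 scale (edgeR adjusted p = 0.0122 and 0.00156), and the skeletal muscle myosin light chain kinase Mylk2, 8830 bases away, by 0.39 and 0.29 (0.0242 and 0.0145). The ascending call of Tpx2 was lost with a term for the pseudogene sets (edgeR adjusted p = 0.082), and that of Mylk2 in 10 of the alternative settings.

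Dgkg (ENSMUSG00000022861, chromosome 16, 22468461 to 22657221, minus strand) was also higher in both regions. In the ascending aorta, where it was near the low end of what was measured, it was at 1.35, 1.61, 1.37, 1.79 and 1.48 CPM with water and 3.29, 3.12, 2.72, 2.76 and 2.68 CPM with BAPN. Descending levels were 4.71, 5.11, 7.63, 10.3 and 5.95 CPM with water and 13.6, 14.2, 12.9, 16.1 and 10.8 CPM with BAPN. Neither comparison overlapped. The log2 differences were 0.94 (SE 0.208) and 0.99 (SE 0.154). The descending value moves with the pseudogene sets: water libraries 3 and 4, of the lower set, had the 2 highest water values, and against them alone the difference was 0.58 (SE 0.162).

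Rasl10b (ENSMUSG00000020684, chromosome 11, 83409137 to 83421039, plus strand) was higher in the ascending aorta, at 5.03, 6.05, 6.01, 6.09 and 6.57 CPM with water and 12.9, 12.4, 16.2, 15 and 9.58 CPM with BAPN. The lowest BAPN library lay above the highest water library. Descending levels were 9.32, 10.5, 10.8, 12.2 and 14.3 CPM with water and 11.8, 12.9, 18.6, 14 and 10.9 CPM with BAPN, and the groups overlapped. The log2 differences were 1.16 (SE 0.148) and 0.26 (SE 0.14), and the difference between them -0.90 (SE 0.203). Without descending BAPN library 3 the descending value was 0.12. With BAPN the 2 regions had nearly the same mean, 13.2 CPM (SD 2.57) and 13.7 CPM (SD 3.01).

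Tent5b (ENSMUSG00000046694, chromosome 4, 133480132 to 133487938, plus strand) was at 5.78, 4.56, 4.35, 4.89 and 7.49 CPM with water and 7.79, 11.0, 12.1, 12.9 and 8.57 CPM with BAPN in the descending aorta. These groups did not overlap, though 7.49 and 7.79 CPM were close. Ascending levels were 9.87, 9.22, 7.63, 9.51 and 8.45 CPM with water and 10.3, 10.1, 14.1, 15.1 and 11.8 CPM with BAPN. The ascending groups did not overlap either, though 9.87 and 10.1 CPM were close. The log2 difference was 0.95 (SE 0.157) in the descending and 0.46 (SE 0.147) in the ascending aorta.

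Nnat (ENSMUSG00000067786, chromosome 2, 157560078 to 157562522, plus strand) had the lowest single count of the 10, 8 reads in a library. In ascending water Dgkg was lower, with a median of 30 reads against 153 for Nnat. In the ascending aorta it was at 5.43, 4.44, 6.34, 8.40 and 11.6 CPM with water and 4.75, 2.69, 2.51, 1.99 and 4.42 CPM with BAPN, with an overlap of library 1 of BAPN with the lowest water value. In the descending aorta it was at 1.69, 3.26, 1.40, 2.42 and 1.29 CPM with water and 1.18, 1.97, 1.93, 1.61 and 0.381 CPM with BAPN, overlapping more widely. The log2 differences were -1.15 (SE 0.296) and -0.53 (SE 0.373). In ascending water the mean was 10 CPM in the higher and 5.41 CPM in the lower pseudogene set. Over the alternatives other than leaving out a library, the ascending value ran from -1.62 to -1.14. The descending value was -0.26 without BAPN library 5, -0.30 without water library 2 and -0.17 with a term for the pseudogene sets. Nnat sits within the span of Blcap on the other strand and shares no exonic base with it. Blcap, which is imprinted in part, was at 28.3 CPM in ascending water and had log2 differences of -0.05 and 0.07 (edgeR adjusted p = 0.756 and 0.596). Within 100 kb of the genes other than Tcap, Ppp1r1b and Foxs1, only Ap2b1, a clathrin adaptor subunit beside Rasl10b, was called for BAPN, higher in the descending aorta by 0.16 (edgeR adjusted p = 0.0329), and that call was lost in 10 of the alternative settings.

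Fndc5, Prss35 and Dnajc9, like Rasl10b above, had BAPN log2 differences that were unlike in the 2 regions. None of them was called for the difference of effects. Fndc5 (ENSMUSG00000001334, chromosome 4, 129136999 to 129144593, plus strand) was at 6.65, 7.82, 10.6, 6.60 and 5.71 CPM with water and 2.58, 3.75, 2.23, 3.21 and 3.28 CPM with BAPN in the descending aorta, with no overlap. Ascending levels were 19.4, 11.9, 13.8, 11.7 and 17.3 CPM with water and 14.5, 12.2, 13.4, 17.4 and 13.7 CPM with BAPN, fully overlapping. The log2 difference was -1.31 (SE 0.186) in the descending and -0.06 (SE 0.149) in the ascending aorta, a difference of effects of -1.25 (SE 0.238).

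Prss35 (ENSMUSG00000033491, chromosome 9, 86743649 to 86758443, plus strand) gave the reverse. In the ascending aorta it was at 25.1, 27.5, 29.1, 30.0 and 22.1 CPM with water and 19.4, 21.4, 17.6, 17.9 and 14.1 CPM with BAPN, and the lowest water value, 22.1 CPM, lay just above the highest BAPN value, 21.4 CPM. All 10 descending libraries lay between 3.05 and 4.37 CPM. The log2 differences were -0.57 (SE 0.0956) and 0.17 (SE 0.137), the latter 0.11 without BAPN library 1.

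Dnajc9 (ENSMUSG00000021811, chromosome 14, 20384638 to 20388910, minus strand) had small differences and replicates that lay close together. In the descending aorta it was at 18.5, 19.1, 18.2, 18.6 and 16.9 CPM with water and 15, 13.1, 14.2, 13.3 and 13.5 CPM with BAPN, with no overlap. Ascending levels were 14.6, 15.6, 13.8, 14.4 and 14.8 CPM with water and 12.7, 14.4, 15.5, 16.3 and 16.2 CPM with BAPN. The log2 difference was -0.40 (SE 0.0701) in the descending and 0.04 (SE 0.0702) in the ascending aorta. With BAPN the descending mean of 13.8 CPM (SD 0.77) was below the ascending mean of 15 CPM (SD 1.49), while with water it was above, 18.3 CPM (SD 0.817) against 14.7 CPM (SD 0.638).

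**Figure D3:**
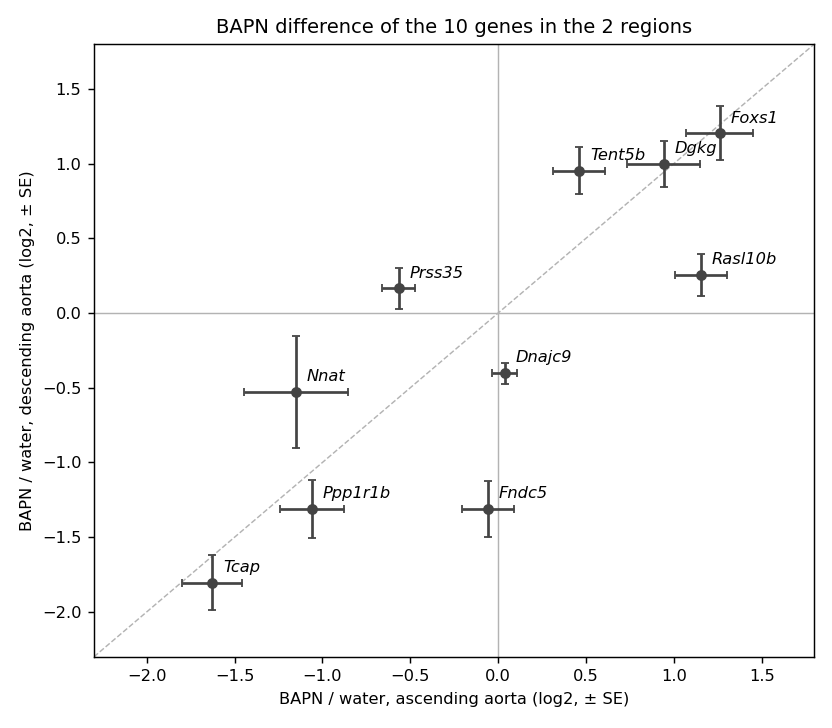
BAPN minus water log2 difference in the ascending (x axis) and descending aorta (y axis) for the 10 genes, with SE bars; the dashed line marks equal differences. Tcap, Ppp1r1b, Foxs1 and Dgkg lie near it, and Rasl10b, Fndc5 and Prss35 lie farther from it.

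The regions were compared over both treatments, a contrast that the choice of the genes did not use. Of the 10 genes 9 were called, 3 higher and 6 lower in the descending aorta, against 40.2% of all genes tested. The median absolute log2 difference was 0.71 for the 10 genes and 0.13 for all tested genes. The 10 ascending libraries were apart from the 10 descending ones for 3 of the 10 genes (Dgkg, Fndc5 and Prss35) and for 10.7% of all genes tested. The residual spread of 7 of the 10 genes lay above the 90th percentile of genes of similar level. Genes of wide spread can have larger absolute differences, so how the 10 stand against all genes is given as a description. Prss35 was lower in the descending aorta by a log2 difference of -2.62 (SE 0.0813; edgeR adjusted p = 4.43e-19), or 6.14-fold, which was -2.98 with water and -2.25 with BAPN. Dgkg was higher there by 2.18 (SE 0.127; edgeR adjusted p = 1.65e-13), or 4.54-fold, with 2.16 under water and 2.21 under BAPN. Fndc5 was lower by -1.61 (SE 0.118; edgeR adjusted p = 1.86e-11), with -0.98 under water and -2.24 under BAPN.

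The other regional differences were smaller. Nnat was lower in the descending aorta by -1.54 (SE 0.236; edgeR adjusted p = 6.41e-06) and Tcap by -0.78 (SE 0.124; 1.09e-05). Tent5b was lower by -0.48 (SE 0.108; edgeR adjusted p = 0.00076), a difference that did not pass under BAPN alone (-0.23; 0.256). Foxs1 was higher there by 0.65 (SE 0.131; edgeR adjusted p = 0.000254) and Rasl10b by 0.49 (SE 0.102; 0.000334), the latter not under BAPN alone (0.04; 0.876). Ppp1r1b was lower by -0.38 (SE 0.134; edgeR adjusted p = 0.0248), and its call was lost without ascending water library 1, ascending BAPN library 3 or descending BAPN library 4 (0.0566, 0.0675 and 0.0546) and under either treatment alone (0.303 and 0.0634). Dnajc9 did not pass (0.10, SE 0.0496; edgeR adjusted p = 0.116). It passed under water alone (0.32; edgeR adjusted p = 0.000784) and not under BAPN alone (-0.12; 0.227). Values under a single treatment are not independent of the choice of the genes and are given as alternatives only.

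**Figure D4:**
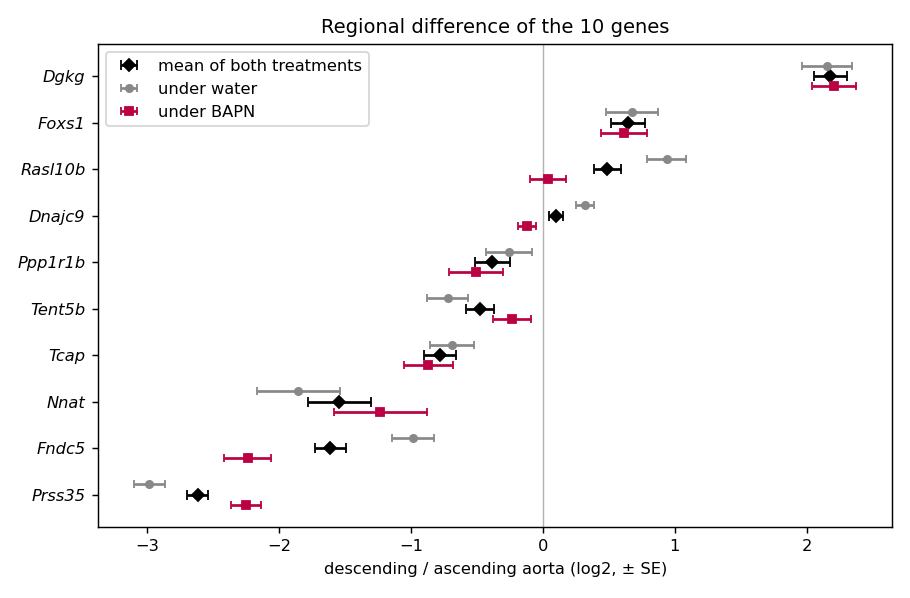
Descending minus ascending log2 difference (x axis) of each of the 10 genes (y axis) averaged over water and BAPN, with SE bars, and under each treatment alone. Prss35 is at -2.62 and Dgkg at 2.18, while Dnajc9 lies on opposite sides of 0 under water and BAPN.

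Per kilobase of exon, levels in ascending water ran from 183 CPM for Tcap to 0.164 CPM for Dgkg. Foxs1 and Prss35 followed Tcap with 7.56 and 7.78 CPM per kilobase, and in descending BAPN Foxs1 stood at 27.8 against 32.4 for Tcap. The other 7 genes were between 0.164 and 6.17 CPM per kilobase in ascending water. Most of the 10 varied more between libraries of a group than genes of similar level: among the 500 genes nearest in mean, the residual spread was above the median for 9 and above the 90th percentile for 7. Dnajc9, at percentile 4.19, was the exception, and Tcap, at 98.8, the highest.

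Relatives of the 10 genes were taken from lists drawn up with earlier results known, and their calls are counted in each direction against the same 6.34% and 10.7% of all genes called. Many of these calls were lost with a term for the pseudogene sets or within 1 set. Within 1 set only 2 water libraries remained in each region. Some were lost with nearly the same log2 value, as Foxo3 in the ascending aorta (0.217, and 0.215 with the term). Others were lost with a smaller one, as Foxc1 there (-0.225, and -0.133 with the term). The part of the sets in the calls was not tested. Of 14 tested Z-disc proteins, the neighbours of Tcap in the sarcomere, 5 rose and none fell in the ascending aorta (median log2 0.36, all genes -0.01). With a term for the pseudogene sets 4 of the 5 (Actn2, Ldb3, Nrap and Pdlim3) were no longer called. In the descending aorta 4 rose and 1 fell (median 0.08), of which 4 of the 5 calls were lost in at least 1 alternative setting. Pdlim5, which links kinases to the Z-disc, rose from 298 to 372 CPM and from 261 to 349 CPM (log2 0.32 and 0.42; edgeR adjusted p = 0.00315 and 0.000121). Nebl fell in the descending aorta by 0.62 on the log2 scale (edgeR adjusted p = 0.00675), a call lost with a term for the pseudogene sets and within 1 set. Of 24 regulators of protein phosphatase 1, 3 rose in the ascending and 4 in the descending aorta and none fell, but all 3 ascending calls and 3 of the 4 descending calls were lost in at least 1 alternative setting. Ppp1r3b, which targets the phosphatase to glycogen, rose in both (0.38 and 0.51; edgeR adjusted p = 0.0122 and 0.000803), though the ascending call was lost with a term for the pseudogene sets (0.128).

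Of 20 tested forkhead factors, 4 rose and 3 fell in the ascending and 5 rose and 3 fell in the descending aorta. With a term for the pseudogene sets 6 of the 7 ascending and 4 of the 8 descending calls were lost. Foxj2 rose by 0.30 and 0.41 (edgeR adjusted p = 0.00116 and 1.91e-05). Foxo6 had -0.85 and -0.70 (edgeR adjusted p = 0.00293 and 0.00784). Its ascending call was among those lost. Of 17 pericyte and mural cell genes, 2 rose and 1 fell in each region, of which 1 of the 3 ascending and all 3 descending calls were lost in at least 1 setting. Mcam, an adhesion molecule of mural and endothelial cells, rose in both (0.29 and 0.26; edgeR adjusted p = 1.98e-05 and 5.01e-05), the descending call being lost within 1 pseudogene set (0.0598). Of 11 small GTPases related to Rasl10b, 2 rose and 1 fell in each region, and 1 call in each was lost within 1 pseudogene set. Rasl11a rose from 25.9 to 43.6 CPM and from 23.4 to 38.0 CPM (0.75 and 0.70; edgeR adjusted p = 5.38e-06 and 1.25e-05), and Rasd2 fell by 0.68 and 0.65 (0.000796 and 0.00291).

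Of the 9 other diacylglycerol kinases, 1 rose and 1 fell in the ascending and 1 rose in the descending aorta, and the ascending calls of Dgkb and Dgkk were lost in 10 and 11 of the alternative settings. None of the 11 tested poly(A) polymerases and none of the 6 tested Fndc genes was called for BAPN in either region. Of 24 tested imprinted genes, 1 rose and 2 fell in the ascending and 1 fell in the descending aorta. All 3 ascending calls were lost with a term for the pseudogene sets, and the descending call within 1 set. Of 4 tested Prss genes, Prss23 rose in the ascending aorta (0.22; edgeR adjusted p = 0.00447), a call lost with a term for the pseudogene sets and within 1 set. Of 21 histone chaperones, 1 rose and 5 fell in the descending aorta and 1 fell in the ascending aorta. Of these, 5 of the 6 descending calls and the ascending call were lost in at least 1 setting. Among the 5, the replication helicase subunit Mcm2 fell by 0.39 (edgeR adjusted p = 0.00518) and the chromatin assembly subunit Chaf1a by 0.63 (0.00593). The call of Chaf1a was lost within 1 pseudogene set (0.10). Of 24 tested DnaJ C genes, 2 rose in the ascending and 4 in the descending aorta, and none fell, with 1 of the 2 and 3 of the 4 calls lost in at least 1 setting. Dnajc3, a stress protein of the endoplasmic reticulum, rose in both (0.20 and 0.22; edgeR adjusted p = 0.00212 and 0.000757).

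Markers of other cell types are given beside these values. The summed level of 15 cardiomyocyte markers was 559 to 1330 CPM in ascending water, 933 to 1720 in ascending BAPN, 77.5 to 91.7 in descending water and 78.2 to 89.8 in descending BAPN. Myl3 and Tnnt2 rose among them in the ascending aorta and none was called in the descending aorta, and none was at 0 in every library. The calls of Myl3 and Tnnt2 were lost in 6 and 10 of the alternative settings. The water and BAPN ranges of the sum overlapped in both regions. The median BAPN log2 difference of these markers was 0.49 in the ascending and 0.15 in the descending aorta. Tcap had -1.63 and -1.80, Fndc5 -0.06 and -1.31, and Nnat -1.15 and -0.53. For these 3 genes, all higher in the ascending aorta, the part of the cardiomyocyte sum in the BAPN and regional differences was not tested. Of 12 markers of proliferating cells, 5 fell in the ascending and 10 in the descending aorta (4 of the 5 and 3 of the 10 calls were lost in at least 1 setting). In the descending aorta the sum went from 155 to 163 CPM to 99.8 to 120 CPM. In the ascending aorta the sum was 122 to 136 CPM with water and 95.1 to 115 CPM with BAPN. Dnajc9 was lower with BAPN in the descending aorta (log2 -0.40) and hardly changed in the ascending aorta (0.04). The part of proliferating cells in its values was not tested. Of 7 tested skeletal muscle markers, 1 (Acta1, lost in 8 settings) rose in the ascending aorta and none was called in the descending aorta, with sums of 14.8 to 28.3 CPM over all libraries. Of 8 smooth muscle markers, Acta2 and Myocd rose in both regions and the others were not called.

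Likeness of pattern was measured as Pearson's r of log2 CPM over the 20 libraries, which share the 4 groups, with the r left after subtracting group means beside it. Tcap was most like Hlf, a clock-controlled transcription factor (r = 0.949, within groups 0.415), followed by Ephx1 (0.935, 0.239) and Bhlhe41 (0.927, 0.58). Ppp1r1b was most like Tcap (0.908, 0.455), Hlf (0.908, 0.333) and Dbp (0.894, 0.475). Of 19 clock genes, 6 rose and 10 fell with BAPN in each region, against 6.34% and 10.7% of all genes called. In each region 2 of these 16 calls were lost in at least 1 alternative setting. Dbp had log2 differences of -2.39 and -2.27 and Arntl of 2.19 and 1.92 in the ascending and descending aorta. Likeness to these 2 clock genes was not confined to Tcap and Ppp1r1b. Foxs1 had r = 0.841 with Arntl and -0.845 with Dbp (within groups 0.332 and -0.251). Rasl10b had 0.681 and -0.698 (-0.126 and -0.0746), and Prss35 the weakest of the 10, -0.152 and 0.165. The part of the clock in the values of the 10 genes was not tested. Foxs1 was most like the secreted protease Adamts15 (0.943, within groups 0.84) and Rasl10b like the nuclear import factor Kpna1 (0.899, 0.796). Prss35 was most like Ezr (0.992, 0.717), Dgkg like Mcam (0.973, 0.385), and Nnat like Gpr162 (0.905, 0.672). Fndc5 was most like Nebl (0.921, 0.286) and Dnajc9 like the replication gene Tyms (0.83, 0.587).

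Among the 45 pairs of the 10 genes, the within-group r was above 0.5 for 2 and below -0.5 for 2, with a median of -0.05. Rasl10b and Tent5b had 0.53 and Tcap and Dnajc9 0.508. Foxs1 went against Tent5b (-0.696) and Rasl10b (-0.6), so that within a group the libraries with more Foxs1 tended to have less of these 2.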

How the data were processed

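The files hold raw counts of reads per gene, as the authors deposited them, in 1 table of 54532 Ensembl genes and 20 per-library files that equal it. The submitters' processing notes list mm10, HTSeq 0.6.1, STAR 2.5 and fastp; settings, strand and annotation are not given in the sources used here. Symbols and coordinates are those of GENCODE on GRCm38 (54495 IDs matched, 37 did not). Groups came from the labels. The 10 genes and all gene lists were chosen with earlier results of these data known.

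With filterByExpr at a minimum count of 10 and a minimum total of 15, 15543 genes were tested, all 10 members among them. The model of edgeR 4.0.16 (quasi-likelihood, R 4.3.3) had a coefficient per group and 16 residual degrees of freedom, with Benjamini-Hochberg adjustment within each comparison. Depth was 15.7 M to 23.3 M counts, and the median SE was 0.0871 in the ascending and 0.0878 in the descending log2 difference. Genes named are the 10, tested genes within 100 kb of them, up to 4 called genes of smallest p per list, and the 3 genes most alike to each, of which some are given. Alternatives were other scalings and filters, DESeq2 1.42.0, limma-voom (limma 3.58.1), replicate blocks, the 2 compared groups alone, each treatment alone, a term for the pseudogene sets, 1 set alone, and leaving out each library. The pseudogene sets were found in earlier work on these data. Promoter sequences are RefSeq's, and figures were drawn with matplotlib 3.10.9.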

Additional observations from a re-analysis of the deposited data

How the results depend on the processing

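The numbers of genes called for BAPN changed most where the pseudogene sets entered the fit. The ascending count of 986 became 542 with a term for them and 483 within 1 set, and the descending count of 1667 became 1126 and 430. Within 1 set only 2 water libraries remained in each region; the cause was otherwise not tested. The difference of effects, with 0 genes called, gave 41 without a filter on low counts, 14 with DESeq2 and 20 with treatment and replicate number as a block; the cause was not tested. Leaving out each library in turn gave 0 to 16, with 16 without descending water library 4 and 1 without descending BAPN library 5. The same removal gave 719 to 1094 for the ascending, 1240 to 1684 for the descending and 5924 to 6334 for the regional comparison. Upper-quartile scaling changed the descending split from 961 higher and 706 lower to 706 and 874 and the ascending split from 534 and 452 to 449 and 529. Without a filter the latter was 434 and 517. With replicate number as a block over all groups the counts were 1125, 1762, 0 and 6329. The main model took no libraries as pairs. Deviations of same-numbered ascending and descending libraries correlated at 0.064 to 0.106 with BAPN and -0.0478 to 0.104 with water. Of these, 5 of 5 and 1 of 5 matched their own number best. Between treatments, descending water and descending BAPN had -0.0278 to 0.167 and 3 of 5. Ascending water and ascending BAPN had -0.0458 to 0.0759 and 1 of 5. What a number stands for is not in the labels. Dnajc9 reversed in the regional comparison under BAPN alone (-0.12; edgeR adjusted p = 0.227). Dgkg had 1.23 with the term for the sets in the ascending aorta, against 0.94, and -0.47 for the difference of effects. Nnat had 1.29 for that difference, against 0.62.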

Other observations

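Libraries of the same number and treatment moved together for some of the 10 genes, a pattern noticed after the values were seen. The labels do not say whether a number marks 1 animal. Deviations of log2 CPM from the group mean were compared between the ascending and the descending library over 10 pairs, 5 with water and 5 with BAPN, and 10 relations were computed. The adjustment covers these 10 relations and not other patterns that could have been noticed. The p-values are therefore a description of values already seen. For Foxs1, Pearson's r was 0.961 (exact permutation of the numbers within each treatment, two-sided, p = 0.000139, adjusted 0.00139) and Spearman's rho 0.939 (p = 0.000417, adjusted 0.00417). Without the 2 pairs farthest from the median r was 0.92, and it was 0.947 within the water and 0.97 within the BAPN pairs. Of all genes tested, 0.129% had an r as high, and the median over them was 0.103. In ascending BAPN, Foxs1 ran 32.5, 27.7, 20.8, 15.2 and 22.6 CPM over libraries 1 to 5, and in descending BAPN 50.8, 38.6, 30.6, 25.2 and 37.0 CPM, so that both regions had the same order of libraries. With water it ran 12.5, 10.8, 10.4, 8.19 and 7.61 CPM in the ascending and 18.4, 17.6, 17.8, 13.9 and 11.5 CPM in the descending aorta. Library 1 was thus the highest in every group, across both treatments. What a number stands for cannot be told from the labels, and a trend with number was not tested.

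For Rasl10b r was 0.843 (exact permutation p = 0.00722, adjusted 0.0361) and rho 0.879 (p = 0.00333, adjusted 0.0167), with 0.763 without the 2 farthest pairs, 0.873 within water and 0.86 within BAPN. For Tcap r was 0.773 (exact permutation p = 0.0188, adjusted 0.0627) and rho 0.709 (p = 0.0348, adjusted 0.116), and r was 0.593 without the 2 farthest pairs; this did not pass after adjustment. For the other 7 genes r ran from -0.634 (Nnat) to 0.486 (Tent5b), and none passed.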
